A study of Mus musculus with 4 samples.

Results

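The genes described here encode CTCF and the cohesin machinery: Ctcf, Rad21, Smc3, Nipbl, Mau2, Wapl, Pds5a and Pds5b. They were chosen by name, as the rows of the deposited count table that carry these symbols, and all 8 were found among its 24984 genes. The table came from TTchem-seq of double positive (DP) thymocytes, developing T cells that carry both CD4 and CD8. In TTchem-seq, RNA made during a short exposure to 4-thiouridine is fragmented, captured and sequenced, and because introns are covered too, the signal of a gene follows its transcription more closely than its stable mRNA does. The comparison asked what loss of Tox4, an HMG box protein that regulates PP1 phosphatases, does to transcription in these cells. The wild-type (WT) group was labelled with the genotype Tox4;F/F and the conditional knockout (cKO) group with Tox4;F/F;Lck+, with 2 libraries in each. Both groups therefore carried the floxed Tox4 allele, in which exons 4 to 6 lie between loxP sites, and they differed in the Lck-Cre transgene. The study's methods describe gender-matched littermates as a general rule. They give a C57BL/6 background for the fertilized eggs in which the floxed allele was made. The mice were 6 to 8 weeks old. Cre was driven by the proximal Lck promoter, which acts in T lineage cells from the double negative stage onwards. A CD4 bead kit is described for DP cells of other assays, and how the cells for TTchem-seq were purified is not given in the sources used here. No group carried Cre without the floxed allele, so an effect of Cre itself cannot be told apart from the loss of Tox4. The study describes its genomic replicates as biological, and the labels do not say which mice the libraries came from, so the p-values measure the spread between these libraries. The WT libraries differed widely in Xist (values below), as repeats of 1 RNA sample would not.

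CTCF is a zinc finger protein that binds DNA at very many places and, where it meets cohesin, stops it, which marks the borders of chromatin loops and domains. Cohesin is a ring built of SMC1A, SMC3 and the kleisin RAD21, to which a STAG subunit is attached. NIPBL and MAU2 form the loader, which drives loop extrusion by the ring, WAPL opens the ring and releases it from DNA, and PDS5A and PDS5B sit on the kleisin and take part both in release and in protection. In thymocytes this machinery is known for folding the antigen receptor loci during V(D)J recombination and for holding sister chromatids together in cells that divide.

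The libraries held 42626473 and 48690591 fragments in WT and 38429786 and 39760312 in cKO. Of all genes, 11625 reached a mean of 1 CPM or more (CPM is a gene's fragments scaled to a common library size) and were examined, among them all 8 named above. Tox4 itself was at 74.0 and 70.3 CPM in WT and at 59.3 and 57.2 CPM in cKO, so it fell by 0.31 on the log2 scale (SE 0.0998, DESeq2 adjusted p = 0.0453), a call that edgeR (0.153), limma voom (0.143) and removal of the length trend of all genes (0.0637) did not make. These counts cover the whole gene, of which Cre removes only a part, and are no measure of how complete the deletion was. DP markers were present in every library (Cd4 at 621 to 715 CPM), and 2 of their 9 genes were called lower in cKO with DESeq2, which called 3.71% of all genes: Cd8a (log2 fold change −0.54) and Rag1 (−0.31, adjusted p = 0.0499, and 0.0741 with the length trend removed). Rag1 was at 918 and 1169 CPM in WT and at 882 and 802 CPM in cKO, so WT replicate 2 lay far above the rest, and without that library the list of 9 went from a median log2 fold change of −0.03 (3 of 9 above 0) to 0.06 (7 of 9). Markers of single positive thymocytes summed to 484 to 491 CPM in WT and 428 to 491 CPM in cKO, with 2 of 5 called higher and 1 lower. With edgeR and limma voom 0 genes of either marker list were called, and at an unadjusted DESeq2 p below 0.05 there were 2 of the 9 and 4 of the 5, against 13.5% of all genes. Summed markers of B cells (8.86 to 10.1 CPM), myeloid cells (9.14 to 11.9 CPM) and erythroid cells (0.0130 to 0.465 CPM) were low. The 5 stromal markers summed to 361 to 417 CPM, almost all of it Pecam1, while the thymic epithelial gene Psmb11 was at 0. WT replicate 1 stood apart in a pair of respects: the 12 genes of cycling cells summed to 462 CPM there, against 702 CPM in WT replicate 2 and 828 and 711 CPM in cKO, and Xist was at 172 CPM there against 2.36 CPM or less in the other libraries. Xist is transcribed from the inactive X chromosome of female cells, so these values go against gender matching across the 4 libraries. In bulk samples, fewer cells of a type and less RNA per cell cannot be told apart.

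All 8 genes lay above the median level of the genes examined, in CPM and per kb. Their levels in CPM ran from 147 for Smc3 to 762 for Nipbl, and every library held 5761 to 34907 fragments of each, so counting error was small. Because the counts cover introns and the genes span 26.6 to 154.64 kb, levels are compared between genes only per kb of gene. On that scale the levels ran from 1.75 CPM per kb for Pds5b to 11.9 CPM per kb for Mau2, a range of 6.78-fold, against a median of 1.46 CPM per kb over the 11625 genes. Mau2 stood highest, at the 95.4th percentile of those genes and 1.88 times the level of Ctcf. Ctcf (mean over the 4 libraries 6.33 CPM per kb) and Rad21 (6.22) followed at percentiles 89.5 and 89.3, and their ranges over the 4 libraries overlapped, so the order of these 2 was not settled. Nipbl (4.93), Wapl (3.54), Smc3 (3.24), Pds5a (2.67) and Pds5b (1.75 CPM per kb) came next, at percentiles 85.5 down to 55.9, each separated from its neighbour among the 8 without overlap between libraries. Of the ring subunits outside the 8, Stag2 (2.45 CPM per kb) overlapped Pds5a, Smc1a lay between 1.87 and 2.13 CPM per kb, and Stag1 (1.76) overlapped Pds5b. Per kb, the loader subunit Mau2 thus exceeded its partner Nipbl in all 4 libraries, and Rad21 exceeded Smc3 in all 4. Exons made up 20.2% of the counted span of Mau2, 6.96% of that of Nipbl and 5.34% of that of Pds5b. The counts do not separate exonic from intronic fragments, and the part of mature mRNA in this order was not tested.

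**Figure D1:**
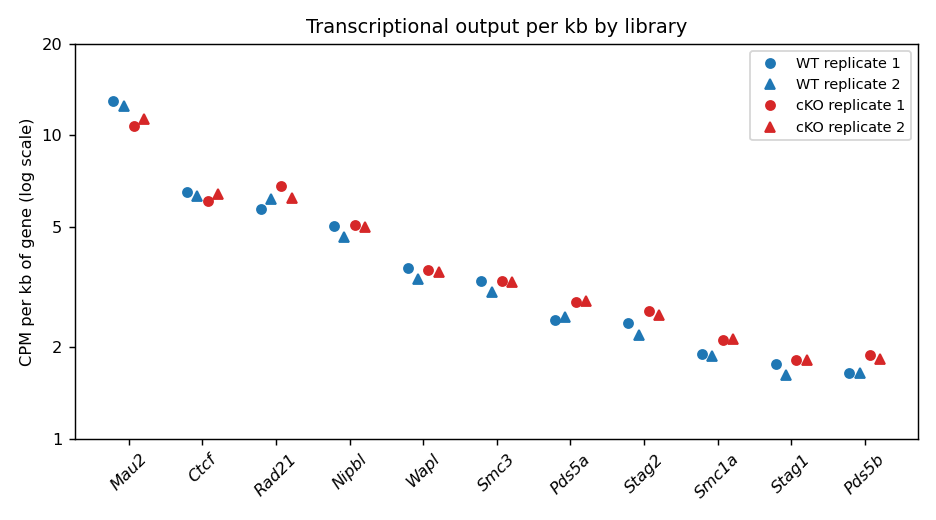
Level of each gene in CPM per kb of gene (log axis), 1 point per library, for the 2 WT and 2 cKO libraries, with Smc1a, Stag1 and Stag2 for context. Mau2 sits between 10.7 and 13.0 CPM per kb and Pds5b between 1.65 and 1.89, while the points of Ctcf and Rad21 overlap.

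None of the 8 genes was called changed between cKO and WT, where a call needed a DESeq2 adjusted p below 0.05, a change of 1.2-fold or more and a mean level of 1 CPM or more. By the same rule 249 genes were called higher and 182 lower, 3.71% of the 11625, and of the 1389 genes whose mean CPM lay within the range of the 8, 106 or 7.63% were called. With edgeR and limma voom, which called 0.499% and 0.525% of the genes, the count for the 8 was also 0. At an unadjusted DESeq2 p below 0.05 there were 3 of 8 (Mau2, Pds5a and Pds5b), against 13.5% of all genes and 21.2% of those in the same CPM range, and edgeR gave the same count. The log2 fold change was above 0 for 6 of 8, with a median of 0.05, against 50.2% of all genes and a median of 0.00. Without WT replicate 1 that median was 0.09 with 6 of 8 above 0, and without WT replicate 2 it was −0.0035 with 4 of 8 above 0.

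A missing call does not show that a gene stayed the same, so the reverse was tested as well. DESeq2's test of a change smaller than 1.5-fold passed for 8 of 8 genes (adjusted p between 3.58e-12 for Nipbl and 1.83e-06 for Mau2), against 66.7% of all genes and 95.9% of those in the same CPM range. A change smaller than 1.2-fold was shown for 4 of 8, namely Ctcf (adjusted p = 0.0304), Nipbl (0.0306), Wapl (0.0304) and Smc3 (0.0394), against 11.0% of all genes and 47.7% of those in the same CPM range. For Rad21, Mau2, Pds5a and Pds5b this test did not pass (adjusted p between 0.124 and 0.328). The median SE of the log2 fold change was 0.0753 for the 8 and 0.148 for all genes.

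**Figure D2:**
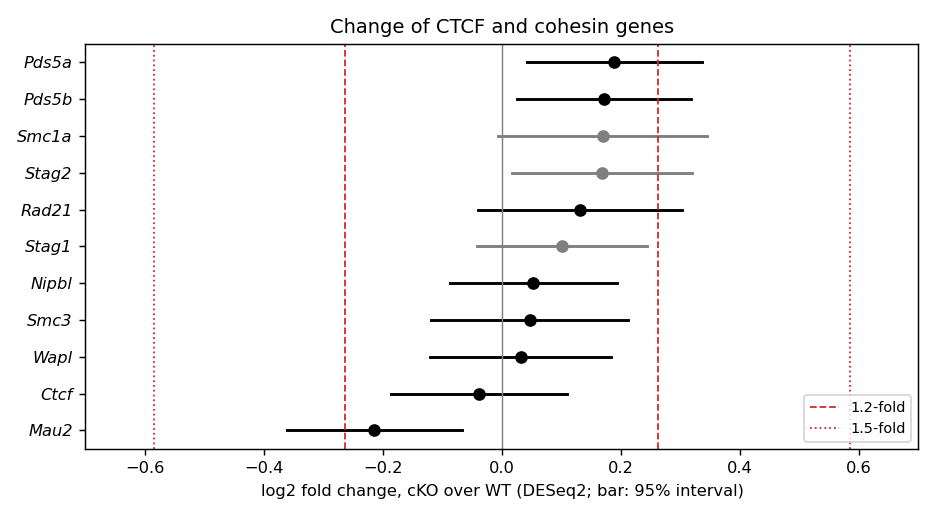
Log2 fold change of cKO against WT (DESeq2) with its 95% interval for each gene (Smc1a, Stag1 and Stag2 in grey), with limits at 1.2-fold and 1.5-fold marked. The intervals of Mau2 (below 0) and of Pds5a and Pds5b (above 0) miss 0 before adjustment, as does that of Stag2 (above 0), and no interval reaches 1.5-fold.

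**Figure D3:**
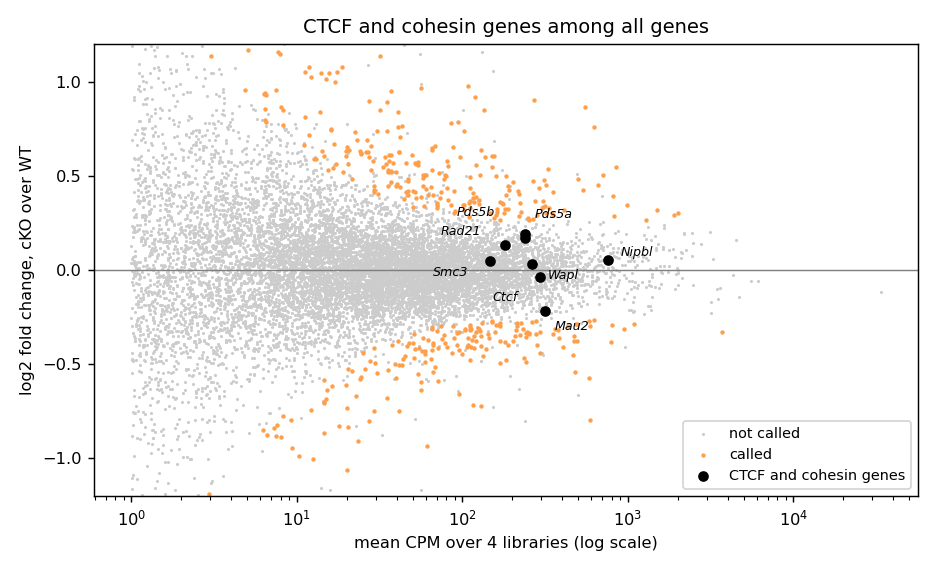
Log2 fold change of cKO against WT plotted against mean CPM (log axis) for the 11625 genes examined, called genes in orange, with CTCF and cohesin genes labelled; 60 genes with a log2 fold change beyond 1.2 in size lie outside the axis. The labelled genes sit in the upper part of the CPM range and close to 0, and none of them was called.

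Ctcf lies on chromosome 8 (GRCm38, chr8:105636538-105682922, plus strand), and its 46.4 kb hold 12 exons that make up 8.24% of the counted span. It was at 302 and 293 CPM in WT (297 ± 6.24, SD, n = 2) and at 283 and 297 CPM in cKO (290 ± 10.3). The groups overlapped, since cKO replicate 2 lay above WT replicate 2. The fold change was 0.974 (95% interval 0.879 to 1.08, log2 −0.04, SE 0.0754, DESeq2 adjusted p = 0.895). The genes whose centred log2 CPM over the 4 libraries lay nearest to that of Ctcf, among 8153 genes with a mean of 10 CPM or more, were Wasl, which encodes N-WASP, Cramp1l and Gmip, at Euclidean distances of 0.0072, 0.0122 and 0.0135. The other cohesin genes lay at distances of 0.114 (Wapl) to 0.25 (Rad21). With 4 libraries and fold changes this near 0, such nearness is a description only.

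The first 937 bases of Ctcf are shared with a transcript unit of the other strand, Gm5914 (chr8:105624336-105637474), which starts inside Ctcf and runs across its start and upstream region. The overlap is 2.02% of Ctcf. Gm5914 was at 220 and 220 CPM in WT and 219 and 192 CPM in cKO (log2 fold change −0.10, SE 0.0853, DESeq2 adjusted p = 0.689), which is 16.2 CPM per kb and more than Ctcf itself. Whether the deposited counts used strand is not stated, so reads from the shared stretch could belong to either transcript. The 250 bases upstream of Ctcf's start are shown because the span of Gm5914 covers them. They are given 5′ to 3′ on the strand of the gene, with the last base next to the start, in the RefSeq sequence of GRCm38.p6, and capitals mark CCGCCC, the reverse complement of the SP1 type motif GGGCGG:
Ctcf, chr8:105636288-105636537, plus strand: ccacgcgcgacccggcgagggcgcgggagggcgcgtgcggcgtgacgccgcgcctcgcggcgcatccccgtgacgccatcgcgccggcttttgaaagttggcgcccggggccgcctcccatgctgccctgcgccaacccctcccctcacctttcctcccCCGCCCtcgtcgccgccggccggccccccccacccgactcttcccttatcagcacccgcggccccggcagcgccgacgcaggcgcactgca
The window was 77.6% G or C with 40 CpG dinucleotides, against a median GC share of 60% for the windows of genes examined here.

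Rad21 encodes the kleisin that closes the ring and is the subunit cut by separase at anaphase (chr15:51962604-51991760, minus strand, 29.2 kb, 14 exons). It was at 166 and 180 CPM in WT (173 ± 9.80, SD, n = 2) and at 199 and 181 CPM in cKO (190 ± 12.3). No WT library reached either cKO library, but the gap between WT replicate 2 and cKO replicate 2 was smaller than the spread within either group, and 24.4% of all genes had both cKO libraries above. The fold change was 1.10 (95% interval 0.973 to 1.23, log2 0.13, SE 0.0871, DESeq2 adjusted p = 0.552). Rad21 was the only 1 of the 8 whose libraries fell in the same order as the summed genes of cycling cells, with WT replicate 1 lowest and cKO replicate 1 highest. That was seen in the values and not sought beforehand, and the share of all genes with this order was not counted. The order rested on a small gap between WT replicate 2 (180 CPM) and cKO replicate 2 (181 CPM). The part of cycling cells in the values of Rad21 was not tested. The log2 fold change of Rad21 was 0.066 without WT replicate 1, 0.072 without cKO replicate 1, 0.20 without WT replicate 2 and 0.19 without cKO replicate 2.

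Smc3 encodes one of the pair of coiled coil ATPases of the ring (chr19:53600396-53645831, plus strand, 45.4 kb, 29 exons). It was at 151 and 139 CPM in WT (145 ± 8.67, SD, n = 2) and at 149.9 and 149.6 CPM in cKO (149.8 ± 0.222), so both cKO libraries lay between the WT libraries. The fold change was 1.03 (95% interval 0.921 to 1.16, log2 0.05, SE 0.0846, DESeq2 adjusted p = 0.888). The ratio of Smc3 to Rad21 per kb was 0.583 and 0.494 in WT and 0.484 and 0.530 in cKO, with overlap (log2 difference −0.08).

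The other subunits of the ring in somatic cells were examined for context. Smc1a, the partner of Smc3, was at 86.4 and 85.2 CPM in WT and 96.4 and 96.9 CPM in cKO (log2 fold change 0.17, SE 0.0897, DESeq2 adjusted p = 0.382). Stag2 was at 308 and 282 CPM in WT and 337 and 327 CPM in cKO (0.17, SE 0.0774, adjusted p = 0.272), and Stag1 was at 557 and 512 CPM in WT and 575 and 574 CPM in cKO (0.10, SE 0.0730, adjusted p = 0.594). All 3 had both cKO libraries above both WT libraries, as did 24.4% of all genes, and none was called. Smc1a and Stag2 are on the X chromosome and Stag1 is on chromosome 9, and WT replicate 1 with its high Xist was not the lower WT library for any of them. The part of a sex difference between the libraries in these values was not tested. The meiotic forms were low: Rad21l had no fragment in any library, Smc1b and Ctcfl were at no more than 0.0520 CPM, Rec8 averaged 0.579 CPM, and only Stag3 passed the level criterion, at 1.57 CPM. A total of 3 fragments, the limit that a count of 0 allows, correspond to 0.0616 to 0.0781 CPM in these libraries, for counting error only.

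Nipbl encodes the large loader subunit, which stimulates the ATPase of the ring (chr15:8289824-8444463, minus strand, 154.64 kb, 46 exons). It was at 778 and 717 CPM in WT (748 ± 43.4, SD, n = 2) and at 781 and 772 CPM in cKO (777 ± 6.37), with overlap, since WT replicate 1 lay above cKO replicate 2. The fold change was 1.04 (95% interval 0.941 to 1.14, log2 0.05, SE 0.0716, DESeq2 adjusted p = 0.837). That log2 value depended on the WT library left out, at 0.00077 without replicate 2 and 0.10 without replicate 1.

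Mau2 encodes the smaller loader subunit, which binds the N-terminal part of NIPBL and stabilises it (chr8:70016123-70042734, minus strand, 26.6 kb, 19 exons, 20.2% of the counted span exonic). Its fold change was the largest of the 8 in size with all libraries, though not without cKO replicate 1, when it was −0.17 on the log2 scale against 0.20 for Pds5a. It was at 346 and 333 CPM in WT (339 ± 8.75, SD, n = 2) and at 286 and 300 CPM in cKO (293 ± 10.3), and both cKO libraries lay below both WT libraries, as they did for 24.6% of all genes. The fold change was 0.862 (95% interval 0.778 to 0.954, log2 −0.21, SE 0.0750), with an unadjusted p of 0.00418 and a DESeq2 adjusted p of 0.0815, so that it did not pass the test. The adjusted p was 0.21 with edgeR and 0.188 with limma voom. Leaving out each library in turn gave log2 fold changes of −0.26 to −0.17.

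The level of Nipbl relative to Mau2 per kb was 0.387 and 0.370 in WT and 0.471 and 0.443 in cKO. The groups did not overlap, with mean log2 ratios of −1.40 ± 0.0466 in WT and −1.13 ± 0.0627 in cKO (SD, n = 2) and a difference of 0.27. An exact two-sided permutation test gave p = 0.333, the smallest that 2 against 2 libraries allow, and 0.667 after adjustment over the 4 pairs of partners compared, so this test cannot call such a difference whatever its size.

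Mau2 shares its start region with Sugp1, a gene of the other strand that begins 53 bp away (chr8:70042787-70072347) and encodes a protein with a G-patch domain. Sugp1 was at 119 and 115 CPM in WT and at 107 and 106 CPM in cKO (log2 fold change −0.15, SE 0.0858, DESeq2 adjusted p = 0.476). Both its cKO libraries lay below both WT libraries, as they did for 24.6% of all genes. The 52 bases between the 2 starts are shown because transcription leaves them on both sides. They are written on the strand of Mau2, from GRCm38.p6, with capitals for CCGCCC:
Mau2 to Sugp1, chr8:70042735-70042786, minus strand: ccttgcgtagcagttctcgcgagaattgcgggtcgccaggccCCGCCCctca

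Wapl encodes the release factor of cohesin (chr14:34673928-34747983, plus strand, 74.1 kb, 19 exons). It was at 270 and 248 CPM in WT (259 ± 15.3, SD, n = 2) and at 268 and 263 CPM in cKO (265 ± 3.30), again with both cKO libraries between the WT libraries. The fold change was 1.02 (95% interval 0.919 to 1.14, log2 0.03, SE 0.0779, DESeq2 adjusted p = 0.922). Wapl and Nipbl, the release factor and the loader, lay in a narrow ratio, 0.724 and 0.723 per kb in WT and 0.715 and 0.711 in cKO. The log2 difference was −0.02, with both cKO libraries below both WT libraries and an exact two-sided permutation p of 0.333 (0.667 after adjustment over the 4 pairs).

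Pds5a and Pds5b are paralogs on chromosome 5, and each lay higher in both cKO libraries, as did 24.4% of all genes. Pds5a (chr5:65607770-65697975, minus strand, 90.2 kb, 33 exons) was at 222 and 227 CPM in WT (225 ± 3.13, SD, n = 2) and at 255 and 258 CPM in cKO (256 ± 1.62). Pds5b (chr5:150673827-150810669, plus strand, 136.8 kb, 35 exons) was at 226 and 225 CPM in WT (226 ± 0.481) and at 258 and 251 CPM in cKO (254 ± 5.22). In both genes the gap between the groups was larger than the spread within either group. The fold change of Pds5a was 1.14 (95% interval 1.03 to 1.26, log2 0.19, SE 0.0751) with an unadjusted p of 0.0118 and a DESeq2 adjusted p of 0.156. The fold change of Pds5b was 1.13 (95% interval 1.02 to 1.25, log2 0.17, SE 0.0747) with an unadjusted p of 0.0216 and a DESeq2 adjusted p of 0.221. Neither passed the test. Leaving out each library in turn gave 0.17 to 0.21 for Pds5a and 0.16 to 0.19 for Pds5b, and so neither value rested on 1 library, WT replicate 1 included.

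The ratio of Pds5a to Pds5b per kb was 1.49 and 1.53 in WT and lay between these in cKO replicate 1 and at 1.56 in cKO replicate 2, with overlap between the groups (log2 difference 0.02, exact two-sided permutation p = 0.667). Their upstream windows are shown for comparison, from RefSeq on GRCm38.p6, 250 bases each, on the strand of the gene. Capitals mark GGGCGG and, in Pds5a, GCGCCAAA, the reverse complement of the E2F type motif TTTGGCGC:
Pds5a, chr5:65698237-65698486, minus strand: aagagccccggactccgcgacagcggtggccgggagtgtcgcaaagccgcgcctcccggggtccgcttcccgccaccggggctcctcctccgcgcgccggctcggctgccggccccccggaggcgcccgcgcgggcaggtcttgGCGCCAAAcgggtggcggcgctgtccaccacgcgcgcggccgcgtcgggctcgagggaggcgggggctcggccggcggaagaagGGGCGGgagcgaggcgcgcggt
Pds5b, chr5:150673577-150673826, plus strand: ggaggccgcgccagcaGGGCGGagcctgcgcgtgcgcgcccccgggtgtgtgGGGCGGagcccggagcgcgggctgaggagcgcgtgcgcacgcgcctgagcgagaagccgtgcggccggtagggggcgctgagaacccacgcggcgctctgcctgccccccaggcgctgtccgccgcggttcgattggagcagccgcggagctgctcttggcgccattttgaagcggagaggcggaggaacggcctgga
The RefSeq start of Pds5a lies upstream of the start in the deposited table, so its window is outside the counted span.

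**Figure D4:**
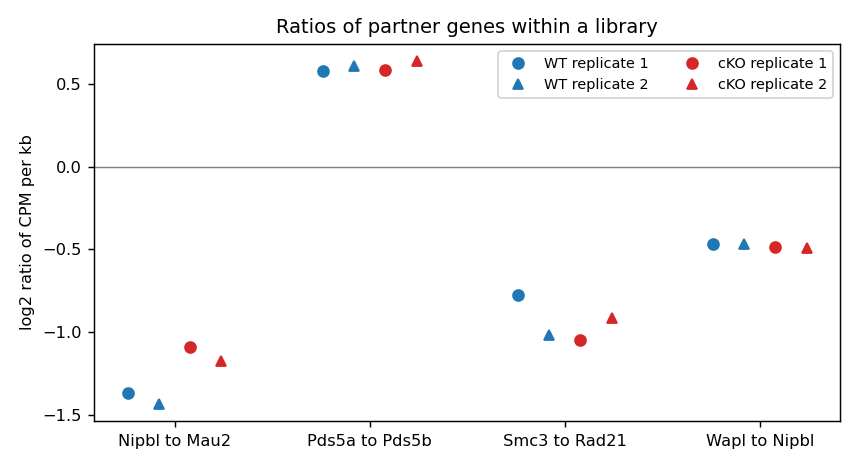
Log2 ratio of the levels in CPM per kb of 4 pairs of partner genes in the 2 WT and 2 cKO libraries, 1 point per library. The mean log2 ratio of Nipbl to Mau2 is −1.40 in WT and −1.13 in cKO with no overlap, and the points of Pds5a to Pds5b and of Smc3 to Rad21 overlap between the groups.

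Upstream windows were at hand for 6 of the 8 genes, all but Rad21 and Nipbl. GGGCGG, read on both strands, was in 6 of 6 windows, against 32.9% of 27025 windows of all genes and 60.4% of the 9110 windows of genes examined here. TTTGGCGC was in 1 of 6 (Pds5a), against 0.437% and 0.922%. CCCTC, a short core of the motif that CTCF binds, was in 4 of 6, against 59.7% and 69.2%. CCGGAAG (the ETS type), the E-box CACGTG, the NRF1 type GCATGCGC, the YY1 type AAGATGG and a second E2F type, TTTCCCGC, were in none of the 6, and their shares among the windows of genes examined here were 15.3%, 8.69%, 4.97%, 4.36% and 1.95%. The GC share of the windows ran from 54.8% in Mau2 to 80.4% in Pds5a.

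Further genes of the pathway were taken from 4 lists: the somatic ring subunits, the meiotic forms, 14 regulators of cohesion and of its establishment, and 12 DNA-binding proteins or cofactors linked to CTCF or to loops. Of their 34 genes 30 were at a mean of 1 CPM or more, and 0 were called in either direction by DESeq2, edgeR or limma voom, against 3.71% of all genes with DESeq2. At an unadjusted DESeq2 p below 0.05 there were 7 of 30, against 13.5% of all genes, and the log2 fold change was above 0 for 21 of 30 (70.0%), against 50.2% of all genes, with a median of 0.09. The DNA-binding list had a median of 0.04, which was −0.016 without WT replicate 1 and 0.077 without cKO replicate 2, with extremes at Maz (0.17, SE 0.265, adjusted p = 0.861) and Yy1, another loop anchor protein (234 and 217 CPM in WT, 207 and 196 CPM in cKO, −0.17, SE 0.0804, adjusted p = 0.303).

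The cohesion regulators had a median log2 fold change of 0.23, with 10 of 14 above 0. At the upper end was Chtf18, a subunit of the clamp loader that works with cohesion at replication forks, at 4.48 and 6.80 CPM in WT and 9.91 and 9.48 CPM in cKO (0.78, SE 0.260, DESeq2 adjusted p = 0.0625, and 0.0417 with the length trend of all genes removed). Its partner Dscc1 was at 4.62 and 6.02 CPM in WT and 8.42 and 8.88 CPM in cKO (0.70, SE 0.253, adjusted p = 0.102), whereas Chtf8, the other partner in that clamp loader, was at 35.3 and 43.7 CPM in WT and 38.1 and 34.7 CPM in cKO (−0.12, SE 0.138, adjusted p = 0.790). Sgo1, the shugoshin that protects cohesin at centromeres, was at 7.11 and 10.2 CPM in WT and 12.3 and 13.2 CPM in cKO (0.56, SE 0.225, adjusted p = 0.164). Its paralog Sgo2a was at 5.30 and 9.30 CPM in WT and 15.5 and 9.28 CPM in cKO, with overlap (0.75, SE 0.293, adjusted p = 0.141). At the lower end was Pttg1, the securin that holds separase back, at 6.94 and 7.02 CPM in WT and 5.33 and 5.28 CPM in cKO (−0.40, SE 0.253, adjusted p = 0.521). The list of 12 genes of cycling cells had a median of 0.36 with 12 of 12 above 0 (50.2% of all genes), 4 of 12 at an unadjusted DESeq2 p below 0.05 (13.5% of all genes) and none called (3.71% of all genes). Without WT replicate 1, the library in which those 12 were lowest, their median was 0.09 and that of the cohesion regulators was 0.11, and without WT replicate 2 the medians were 0.72 and 0.62. The part of cycling cells in the values of the cohesion regulators was not tested.

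The related SMC complexes were described in the same way. Of 8 condensin genes, whose products compact chromosomes at mitosis, 7 were above 0 (50.2% of all genes), with a median of 0.22. Of these 8 genes 0 were called (3.71% of all genes) and 5 were at an unadjusted DESeq2 p below 0.05 (13.5% of all genes), and the highest was Ncapg (0.75, DESeq2 adjusted p = 0.0820). Of 8 genes of the SMC5/6 complex, which acts in DNA repair, 4 were above 0, with a median of 0.01 and 0 called.

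Gene length was also set beside the changes. Across the 8 genes the Pearson correlation of log2 length with the log2 fold change was 0.556 and the Spearman correlation 0.548, given as a description over 8 genes of the same 4 libraries. With the length trend of all genes removed, Mau2 was at −0.22 (DESeq2 adjusted p = 0.0578), Pds5a at 0.15 (0.344), Pds5b at 0.13, Rad21 at 0.12, Ctcf at −0.06, Smc3 at 0.025, Nipbl at 0.0090 and Wapl at −0.0010, and the count called among the 8 was again 0.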

How the data were processed

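The members and gene lists were chosen with earlier results of these data known. The authors filtered reads with fastp 0.13.1 and aligned them with STAR 2.7.9a to GRCm38 (mm10), and the submitters' processing notes name featureCounts 1.6.1. The deposited table held expected counts: 8.61% of values were fractional, and the features spanned whole transcripts with introns, so the exon counts from STAR named in the methods did not make it. Strand use and duplicate removal are not stated for this table. The labels describe oligo-dT capture, whereas the methods describe enrichment of 4-thiouridine labelled RNA and rRNA depletion. A yeast spike-in was added and not used by the authors for scaling, so all values are relative to the library. Every column of per-sample values was used.

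Samples were grouped by title. Counts were rounded to whole numbers and all genes were fitted with DESeq2 1.42.0 in R 4.3.3 (Wald test, default size factors, unshrunken fold changes, Benjamini-Hochberg adjustment). Calls required an adjusted p below 0.05, a fold change of 1.2 and a mean CPM of 1, as in the methods. Small changes were tested with DESeq2's lessAbs test at 1.5-fold and 1.2-fold. CPM used library totals, and intervals are 1.96 SE on the log2 scale. Alternatives were edgeR 4.0.16 (quasi-likelihood), limma 3.58.1 (voom), other scalings and filters, the replicate block and leaving out each library. Profiles near Ctcf used log2(CPM + 0.5). Ratios were tested by exact permutation (scipy 1.17.1). Named genes were the 8 members, the ring subunits, the highest and lowest gene of each pathway list, the 3 nearest profiles and Tox4. Gm5914 and Sugp1 were named for their position, and Xist, Cd4, Cd8a, Rag1, Pecam1, Psmb11, Ncapg, Dscc1, Chtf8, Sgo1 and Sgo2a after their values were seen.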

Additional observations from a re-analysis of the deposited data

How the results depend on the processing

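None of the 8 CTCF and cohesin genes was called in any of the fits run. Of 112 fold changes, 14 alternatives for each of the 8, 108 kept direction and call, 0 gained or lost a call, and 4 changed sign, all near 0: Wapl was at −0.0010 with the length trend removed, and leaving out each library gave −0.0217 to 0.0840 for Wapl (lowest without WT replicate 2), −0.0077 to 0.0997 for Smc3 (likewise) and −0.0801 to 0.0056 for Ctcf (highest without cKO replicate 1). Over the alternatives the smallest adjusted p was 0.037 for Mau2 (edgeR without a low count filter, an alternative chosen after seeing the data, with a fold change under 1.2), 0.121 for Pds5a, 0.193 for Pds5b and 0.469 for Rad21. The number shown to change by less than the limit was 8 at 1.5-fold and 4 at 1.2-fold.

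The count over all genes depended more on the method. Against 249 higher and 182 lower, edgeR called 48 and 10, limma voom 50 and 11, and edgeR without a low count filter 494 and 344. Leaving out each library gave 61 to 320 higher and 28 to 126 lower (61 and 28 without cKO replicate 2, 78 and 48 without cKO replicate 1, 113 and 71 without WT replicate 1, 320 and 126 without WT replicate 2). Other pathway genes called higher were 1 with the length trend removed (Chtf18), 4 with edgeR without a low count filter (Sgo1, Sgo2a, Dscc1 and Chtf18) and 0 to 2 leaving out each library. The log2 difference of the ratio of Nipbl to Mau2 was 0.22 to 0.31 leaving out each library, that of Pds5a to Pds5b −0.0097 to 0.045, that of Smc3 to Rad21 −0.20 to 0.035 and that of Wapl to Nipbl −0.026 to −0.017. The causes were not tested.

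Whether the replicate numbers pair the libraries is not settled. Over 11625 genes, the deviations of libraries with the same number from their group means correlated at −0.03. With 2 libraries a group, this value cannot exclude a pairing. With the replicate block DESeq2 called 121 higher and 72 lower, edgeR 19 and 9, and Mau2 was at −0.22 (adjusted p = 0.501 with DESeq2, 0.32 with edgeR).

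With 2 libraries a group, an exact permutation test of a ratio cannot pass 0.05. The depth of 5761 or more fragments per library makes counting error small for the 8 genes. All values are relative to the library total, so a change shared by all genes would not be seen. Exons make up 5.34% to 20.2% of the counted spans of the 8 genes, and exonic and intronic fragments were not separated.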
